A study of Mus musculus with 18 samples.

Results

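The SP pool is a commercial equimolar mixture of siRNAs against *Stag1* (the SmartPool), and its effect on the transcriptome of male E14 mouse embryonic stem cells (mESCs) was compared here with that of scrambled siRNA (scr). Every SP and scr library of the table of all replicate sets was taken, which gave 8 of the 18 samples of the series. The cells of every group used here were unmodified E14 mESCs, grown feeder-free on gelatin in serum (FCS) with LIF and transfected with siRNA for 24 h, apart from 1 untreated library. Set 1 comprised 3 SP libraries, called 1a, 1b and 1c, beside a single scr library, whereas SP and scr had 1 library apiece in set 2 and in set 3. Libraries 1a, 1b and 1c were averaged and counted as 1 sample, so that each group had n = 3, and SP was paired with the scr library of its set. Sets 2 and 3 also held 1 library each of the 3p, 5p and SATS siRNAs, which address the 3′ end, the 5′ end and an upstream 5′ sequence of *Stag1*. One library of untreated cells in set 2 and 1 of luciferase esiRNA (an enzymatically prepared control) in set 3 served as further controls. The study calls its RNA-seq replicates independent, but neither it nor the labels say whether the sets were separate cultures. The p-values therefore speak only to these samples, with a spread that is partly borrowed across genes.

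*Stag1* encodes 1 of the alternative STAG subunits of cohesin, the ring-shaped complex that holds DNA loops and sister chromatids together. *Stag2* encodes its paralog in somatic and stem cells. In mESCs, the naive state is held by LIF signalling through Stat3 and a network of transcription factors, and FGF signalling through Ras and ERK moves cells out of it. siRNA pools lower mRNAs through base pairing, and a siRNA can also lower transcripts other than its target. The sequences of the SP siRNAs were not analysed here.

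The libraries of set 1 were shallow. They held 9023224 to 14040830 reads on genes, of which 69.2% to 79.1% fell on *Rn45s*, the ribosomal RNA precursor, and 1883691 to 4321867 reads fell on all other genes. The scr and SP libraries of sets 2 and 3 held 26256596 to 33489792 reads outside *Rn45s*, which took 16.4% to 21.9%. A single read was therefore worth 3.22 to 8.05 units of the deposited normalized signal in set 1, against 0.368 to 0.479 in sets 2 and 3. Library 1c stood apart from the rest of set 1. Over 11057 genes its Pearson correlation on log2(signal + 1) was 0.923 with library 1a, 0.944 with 1b and 0.910 with the scr library of set 1, while 1a and 1b correlated at 0.972. It correlated at 0.960 with the scr library of set 3. Correlations across genes are given as descriptions, since genes of 1 library do not vary independently. For some genes and lists, values are therefore also given without library 1c. The other values over 3 sets include it.

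Markers of embryonic stem cells had a summed signal of 64930 to 91670 in the scr libraries and 65010 to 84987 in the SP libraries. None of the 12 listed stem cell markers was at 0 in every library. Summed trophectoderm markers were at 1446 in the scr library of set 1, 982 in 1a, 965 in 1b and 4325 in 1c, and fibroblast markers were at 449, 315, 244 and 878 in the same order. In sets 2 and 3 trophectoderm markers were at 27667 and 8697 with scr and at 24274 and 7684 with SP. No listed marker of these or of the endoderm, mesoderm, neuroectoderm and germ cell lists that the table held was at 0 in all 8 libraries. The part that other cell types play in the differences below was not tested. In bulk samples fewer cells of a type and less RNA per cell cannot be told apart.

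The targeted transcript was lower in every SP library. *Stag1* (chr9:100597798-100959375, plus strand, GRCm38) had a signal of 2016 with scr in set 1 and of 512, 627 and 660 in SP libraries 1a, 1b and 1c. In set 2 it was at 1876 with scr and 406 with SP, and in set 3 at 2113 and 371. The groups did not overlap. *Stag1* fell by 2.15 on the log2 scale (SE 0.15, n = 3 sets, limma with replicate set as a block, Benjamini-Hochberg adjusted p = 0.0381), to 22.5% of scr. By set, the SP level was 29.8%, 21.7% and 17.6% of scr. With only libraries 1a and 1b in set 1 the log2 difference was -2.18. *Stag2* (chrX:42149317-42277185) was at 1748 with scr and 2270.5 to 3237 with SP in set 1, at 1811 and 1895 in set 2 and at 2895 and 3287 in set 3. Its log2 difference of 0.30 ± 0.12 (SE) did not pass the test (adjusted p = 0.661), and the groups overlapped.

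**Figure D1:**
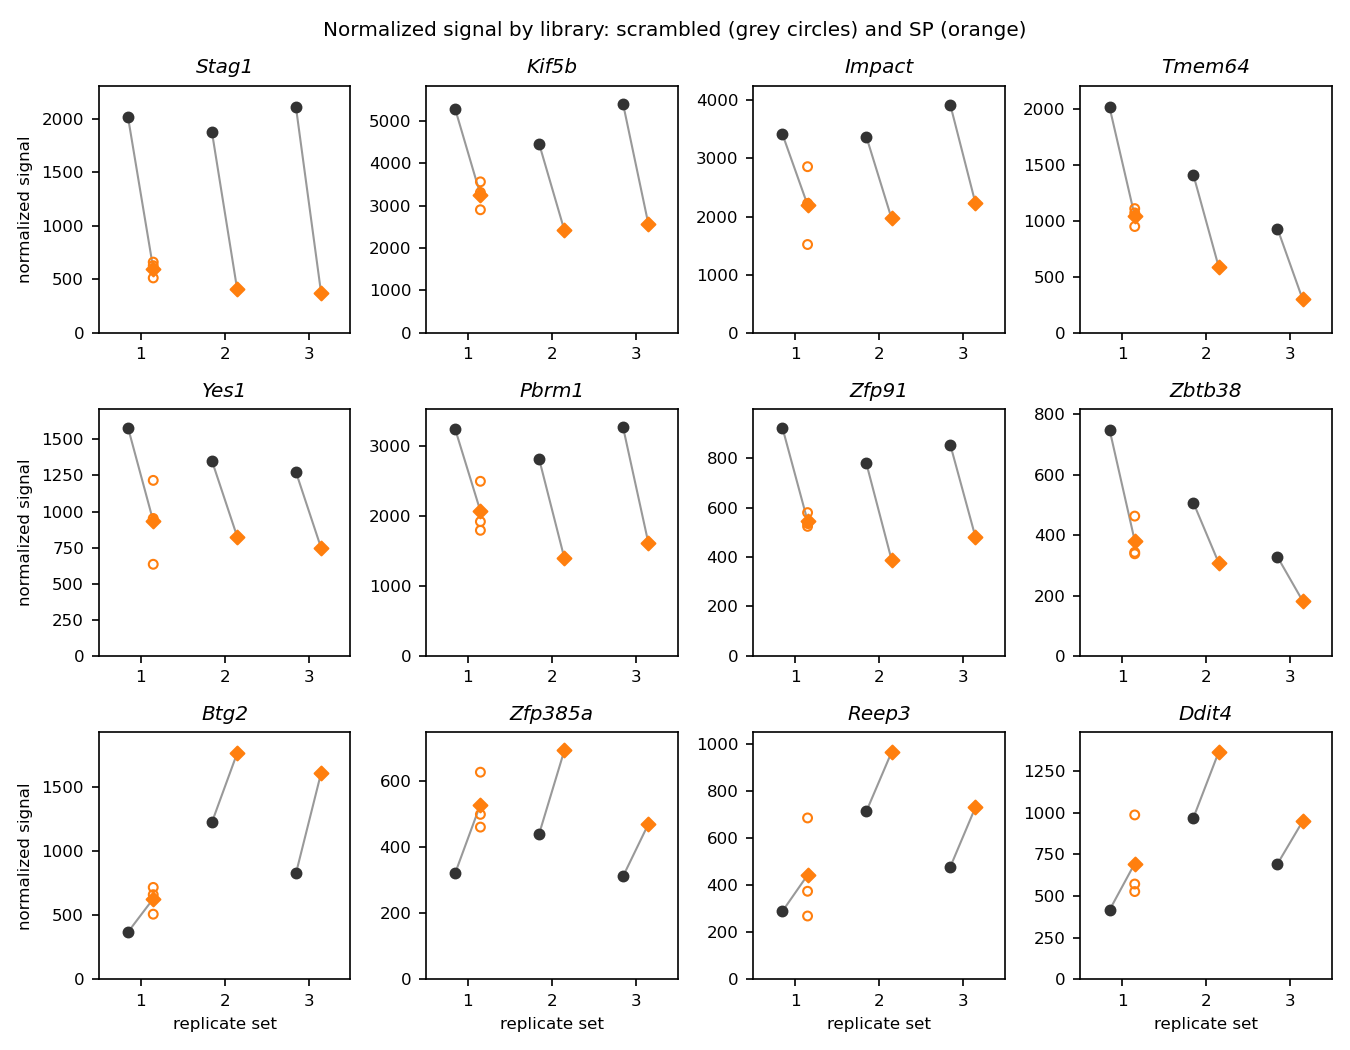
Normalized signal (y axis, linear from 0) in each library, by replicate set (x axis), for *Stag1*, the 7 genes lower with SP and the 4 genes higher with SP that had the smallest p among genes of the same direction in all 3 sets. Dark circles are scr, open orange circles are SP libraries 1a, 1b and 1c, and orange diamonds are the SP sample used, joined to the scr library of its set. *Stag1* was at 1876 to 2113 with scr and 371 to 660 with SP.

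At this level of replication, *Stag1* was the only gene that limma called over all 3 sets. None of 11057 genes passed in the higher direction (0%) and 1 in the lower (0.00904%). At an unadjusted p under 0.05, 434 genes were higher (3.93%) and 384 lower (3.47%). On whole reads recovered from the same table, edgeR with the same block called 2 genes higher (0.0181%) and 21 lower (0.19%). Without the block neither test called any gene, with 62 genes at an unadjusted p under 0.05 by limma and 59 by edgeR. The sets differed in spread. The log2 differences between SP and scr had an SD over genes of 0.58 in set 1, 0.20 in set 2 and 0.23 in set 3, and they correlated across genes at 0.086 between sets 1 and 2, 0.165 between sets 1 and 3 and 0.375 between sets 2 and 3. Left to themselves, sets 2 and 3 gave 238 genes called higher (2.15%) and 279 lower (2.52%) by limma, and 234 and 277 by edgeR. These fits have 4 samples and borrow their spread largely across genes. The limma SE hardly followed the gap between sets 2 and 3. It was 0.10 for *Kif5c* (-0.74 and -0.72) and 0.11 for *Polk* (0.07 and 0.59). Such calls follow mainly the mean difference and do not show that sets 2 and 3 matched.

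A gene was counted as holding in all 3 sets when its log2 difference had 1 sign and a size of at least 0.25 in each set. This was met by 155 genes higher with SP (1.4%) and 148 lower (1.34%), of which 154 and 140 belonged to none of the naive, primed and 2C marker lists. Among the listed markers, 8 naive genes and 1 primed gene held, and no 2C gene. All 23 genes called by edgeR held in all 3 sets, but both criteria read the same samples, so this is not separate support. In sets 2 and 3 alone 334 genes met the size in the higher direction and 357 in the lower. Of these, 46.4% and 41.5% also met it in set 1, where 24.3% and 21.5% of all genes did, and 22.5% and 18.8% met it there in the opposite direction. With libraries 1a and 1b alone the shares that met it in set 1 were 37.4% for higher genes, with 28.7% opposite, and 46.5% for lower genes, with 16.2% opposite. Of the 303 genes that held, 255 also held without library 1c. Among all genes, 22.2% and 22.9% met it in set 1 in the higher and lower direction with these libraries. A minority of the genes higher or lower in sets 2 and 3 thus met the size in set 1, and for the higher genes the gap between the same and the opposite direction was narrower without library 1c.

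**Figure D2:**
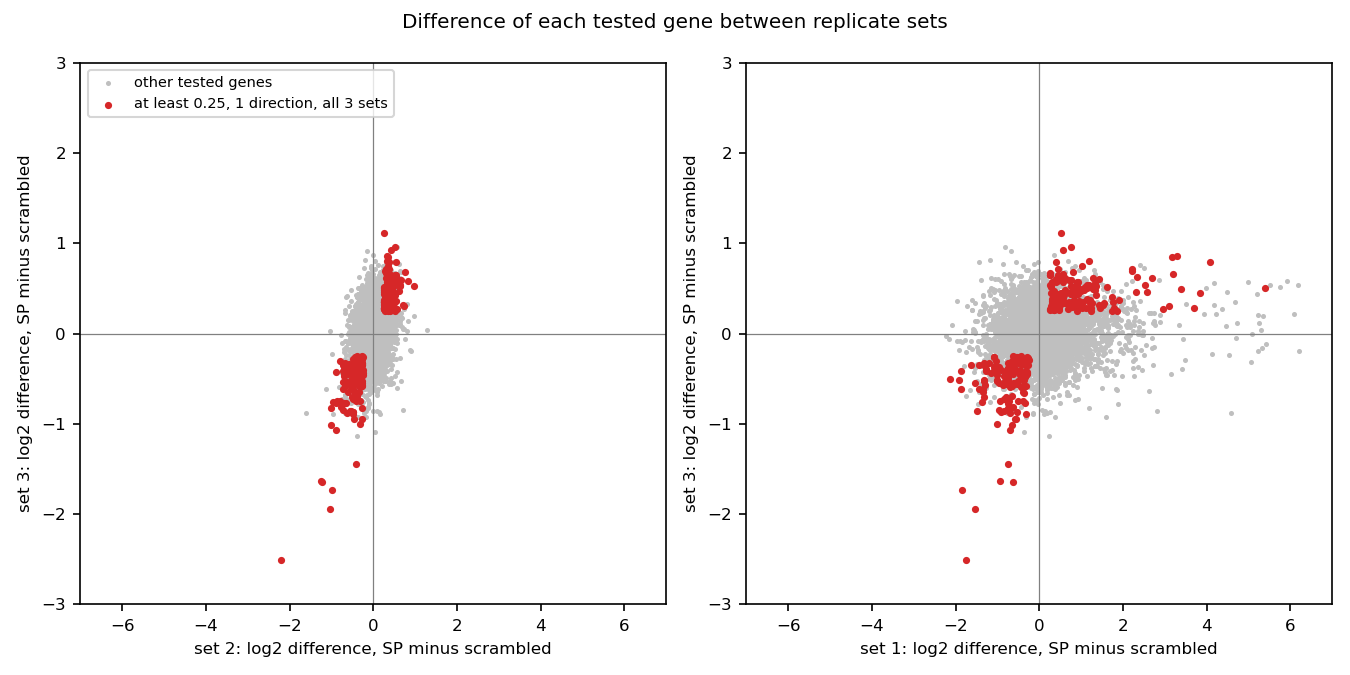
Log2 difference between SP and scr of each of 11057 tested genes, set 3 (y axis) against set 2 (left) and set 1 (right), on axes of unequal span. Red points are the 303 genes with a difference of at least 0.25 in 1 direction in all 3 sets, and the cloud is wider along set 1 (SD 0.58) than along set 2 (SD 0.20).

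After *Stag1*, the genes lower with SP that had the smallest p included genes of transport, chromatin and signalling. *Tmem64*, which encodes a transmembrane protein, was at 2016 with scr in set 1 and at 950, 1110 and 1071 in libraries 1a, 1b and 1c, at 1408 and 589 in set 2, and at 931 and 299 in set 3. The groups overlapped across sets but SP was below scr within each. Its log2 difference was -1.28 ± 0.14 (SE, adjusted p = 0.113 by limma and 0.00182 by edgeR). *Kif5b*, the ubiquitous kinesin-1 heavy chain that moves cargo along microtubules, was at 5277 with scr and 2900, 3309 and 3560 with SP in set 1, at 4455 and 2419 in set 2 and at 5396 and 2575 in set 3. No SP library reached the lowest scr library, and the log2 difference was -0.88 ± 0.09 (SE, edgeR adjusted p = 0.00182). *Pbrm1*, the polybromo subunit of the PBAF chromatin remodelling complex, was at 3241 with scr and 1796, 1920 and 2497 with SP in set 1, at 2814 and 1399 in set 2 and at 3266 and 1621 in set 3. SP was again below every scr library, with a log2 difference of -0.89 ± 0.10 (SE, edgeR adjusted p = 0.00182).

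A further group that edgeR called lower held regulators of protein fate, translation and kinase signalling. *Zfp91*, a zinc finger protein linked to ubiquitin ligation, was at 924, 780 and 855 with scr in sets 1 to 3 and at 547, 390 and 481 with SP (log2 difference -0.86 ± 0.10, SE). *Impact*, an imprinted gene whose product restrains the kinase Gcn2, was at 3422, 3378 and 3926 with scr and at 2201, 1971 and 2230 with SP (-0.74 ± 0.08, SE). *Yes1*, a kinase of the Src family that acts downstream of LIF in mESCs, was at 1580, 1351 and 1274 with scr and at 934, 826 and 748 with SP (-0.74 ± 0.08, SE). For these 3 genes SP and scr did not overlap, although library 1c was the nearest to scr of the SP libraries of set 1, with 2859 for *Impact* and 1216 for *Yes1*. Genes named here were picked by p from the same values, so a lack of overlap describes them and is not separate support. *Gpalpp1* had -0.74 ± 0.10 (SE) and *Nras*, the small GTPase between growth factor receptors and the ERK cascade, -0.55 ± 0.08 (SE), both again without overlap. *Zbtb38*, a zinc finger protein that binds methylated DNA, had -0.84 ± 0.11 (SE), and *Fxr1*, an RNA-binding protein of the fragile X family, -0.58 ± 0.09 (SE). For *Zbtb38* and *Fxr1* the scr library of set 3, at 328 and 3302, lay below every SP library of set 1, so the groups overlapped while SP was lower in each set. The limma adjusted p over 3 sets was between 0.113 and 0.293 for these 7 genes, and edgeR's between 0.00267 and 0.0270.

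*Inhbb*, which encodes a subunit of the activins and inhibins, ligands of the TGF-beta family, differed widely between libraries. It was at 984 with scr and 724, 212 and 72.5 with SP in set 1, at 255 and 125 in set 2 and at 80.5 and 20.2 in set 3. The level under scr thus differed between sets by more than the change within a set, and the groups overlapped. The log2 difference was -1.51 ± 0.20 (SE, edgeR adjusted p = 0.00426), and -1.07 in set 1 without library 1c. *Shtn1* and *Sertad2* completed the genes named from the edgeR calls, with log2 differences of -1.17 ± 0.29 and -0.64 ± 0.11 (SE). *Shtn1* rested on 8 reads in the scr library of set 1. Further calls of edgeR outside the marker lists were *Ceacam1*, *Jmy*, *Slc29a1* and *Abca1*, named after their values were seen, at -1.52, -0.68, -0.63 and -0.97. The LIF receptor gene *Lifr* (-0.57 ± 0.08, SE) and *Fgf4* (-0.64 ± 0.10, SE) were also called lower by edgeR and belong to the naive list.

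Genes higher with SP in all 3 sets had smaller differences. *Btg2*, an antiproliferative target of p53, was at 368 with scr and 508, 717 and 660 with SP in set 1, at 1228 and 1768 in set 2 and at 826 and 1612.5 in set 3. The levels in set 1 were below those of the other sets, so the groups overlapped, but every SP library was above the scr library of its set. The log2 difference was 0.75 ± 0.11 (SE, adjusted p = 0.285 by limma and 0.0218 by edgeR). *Zfp385a*, a zinc finger protein that binds p53 and RNA, was at 321, 440 and 312 with scr and at 529, 693 and 469 with SP. No SP sample overlapped with scr, and the log2 difference was 0.65 ± 0.10 (SE, adjusted p = 0.293 by limma and 0.0297 by edgeR). These were the 2 genes that edgeR called higher. Both passed limma on sets 2 and 3 alone (log2 0.74 and 0.62), but these sets are part of the samples edgeR used, so this is not separate support.

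The next genes in order of p did not pass limma or edgeR over 3 sets and are given as values. *Ddit4*, a stress-induced inhibitor of mTORC1 signalling, had a log2 difference of 0.56 ± 0.10 (SE), with 0.34, 1.25 and 0.46 for libraries 1a, 1b and 1c, 0.49 in set 2 and 0.45 in set 3. *Mlec*, a lectin of the endoplasmic reticulum, had 0.35 ± 0.07 (SE) and was higher in all 5 SP libraries. *Ddx4*, the germ cell RNA helicase known as Vasa, had 0.77 ± 0.17 (SE), with 1.18, 0.33 and 0.80 in sets 1, 2 and 3, and its scr and SP libraries did not overlap. *Tap1*, the peptide transporter of antigen presentation, had 0.76 ± 0.17 (SE) and rested on 8 reads in the scr library of set 1. *Cdc42bpg*, a kinase that acts downstream of Cdc42, had 0.48 ± 0.10 (SE), with 0.09 in 1a and in 1c. The other genes depended on library 1c. *Reep3*, of the endoplasmic reticulum, was at -0.10 in 1a, 0.37 in 1b and 1.25 in 1c. For *Notch3* the values were -0.42, 0.29 and 0.69, and for *Notch2* -0.06, 0.10 and 0.99. In the sterol pathway the same libraries gave 0.16, 0.06 and 0.79 for *Cyp51* and 0.16, 0.12 and 0.58 for *Hmgcs1*. With the mean of 1a and 1b in set 1, *Reep3*, *Notch3*, *Notch2*, *Cyp51* and *Hmgcs1* came to 0.15, -0.02, 0.03, 0.11 and 0.14 and no longer held. In sets 2 and 3 alone limma called all 5 genes higher, by 0.33 to 0.59. Of the 24 genes shown by set, the other 19 held without library 1c.

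**Figure D3:**
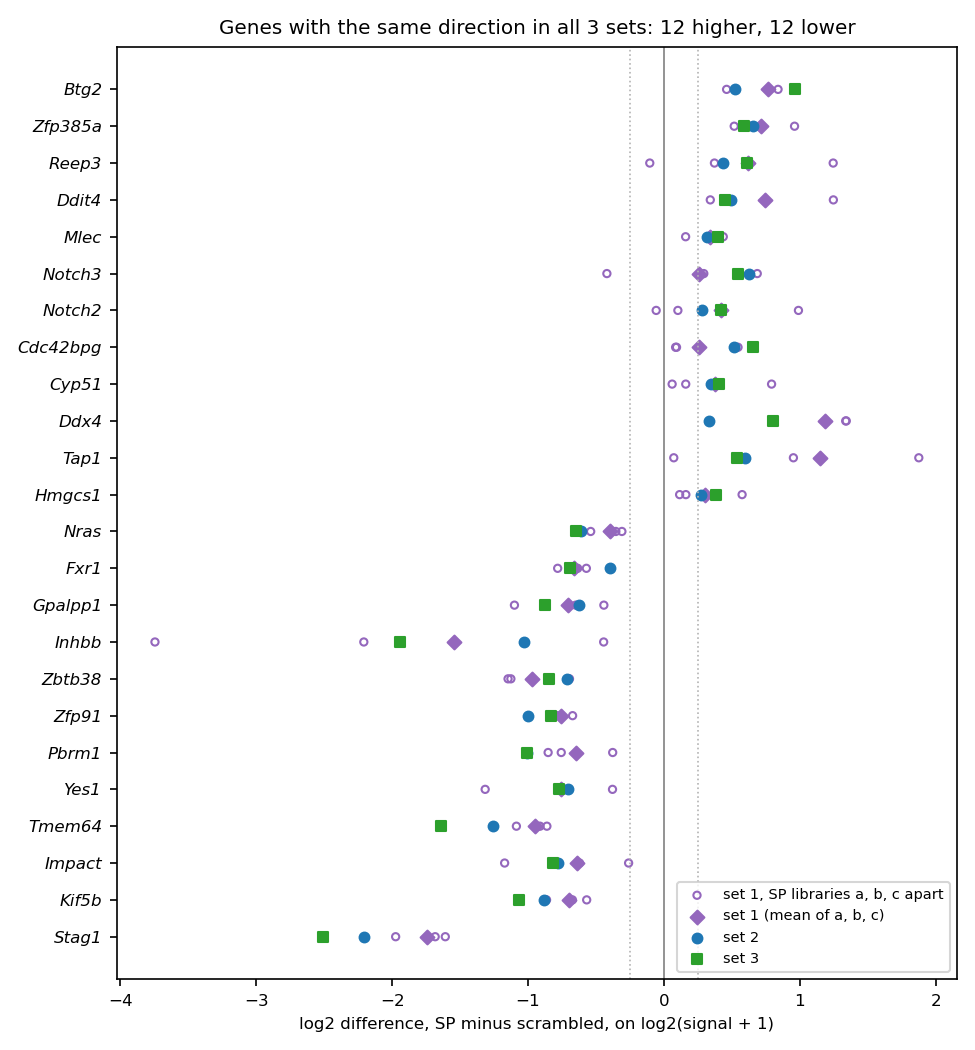
Log2 difference between SP and scr on log2(signal + 1) (x axis) for the 12 genes higher and the 12 lower with SP that held in all 3 sets and had the smallest p. Filled symbols are sets 1, 2 and 3, open circles are SP libraries 1a, 1b and 1c apart, and dotted lines mark 0.25; the lower genes kept 1 direction in all 5 SP libraries, while *Reep3*, *Notch3* and *Notch2* fell below 0 in library 1a.

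Some of these genes share sequence with a neighbour in the GENCODE M21 annotation. *Reep3* overlaps *Jmjd1c*, *Cyp51* overlaps *Akap9*, *Tap1* overlaps *Psmb9*, *Pbrm1* overlaps *Gnl3* and *Smim4*, and *Fxr1* overlaps *Dnajc19*, each on the opposite strand. Less well described transcripts overlap *Reep3*, *Notch3*, *Hmgcs1*, *Kif5b*, *Yes1* and *Zbtb38* on the opposite strand. *Zfp91* overlaps *Cntf* on the same strand. Paired-end reads were counted with strand, but the counting of single-end reads is not stated, so values of these genes are less certain. *Btg2* (chr1:134075170-134079120), *Zfp385a* (chr15:103313895-103340093), *Tmem64* (chr4:15265831-15286753) and *Inhbb* (chr1:119415465-119422248) overlap no other gene of the biotypes searched.

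The genes named for SP were also read in the other siRNA libraries of sets 2 and 3. These comparisons share the scr library of their set with SP, and each holds 1 library per set, so the values are set side by side without a test. *Stag1* was at -2.21 and -2.51 with SP in sets 2 and 3, at -2.26 and -2.53 with 3p, at -2.08 and -2.39 with 5p and at -0.99 and -1.01 with SATS, on the log2 scale. *Tmem64* was at -1.26 and -1.64 with SP, at -0.81 and -1.01 with 3p, at -0.07 and -0.19 with 5p and at -0.07 and -0.30 with SATS. *Kif5b* was at -0.88 and -1.07 with SP, at -0.54 and -0.70 with 3p, at 0.14 and -0.01 with 5p and at 0.14 and 0.07 with SATS. For *Tmem64* and *Kif5b* the 3p values thus lay between SP and 0, and the 5p and SATS values were at most 0.30 in size. *Stag1* itself was at -2.08 or below with SP, 3p and 5p. In the methods the catalogue numbers of the 3p siRNAs end like some of those of the SP pool but carry another prefix letter. Whether the pools share siRNAs is not stated, and the part this plays in these values was not tested.

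*Impact* was at -0.78 and -0.82 with SP and between -0.12 and 0.12 with 3p, 5p and SATS. *Zbtb38* was at -0.71 and -0.84 with SP and between -0.26 and 0.10 with the other siRNAs, and *Fxr1* at -0.39 and -0.69 with SP and between -0.13 and 0.22. Untreated cells in set 2 and luciferase siRNA in set 3 gave -0.29 and 0.20 for *Impact*, -0.08 and 0.002 for *Zbtb38*, and -0.09 and 0.01 for *Fxr1*. These 3 genes were thus low with SP and nearer to scr with the other siRNAs to *Stag1*. Pairing of the SP siRNAs with their transcripts was not tested. *Zfp91* was at -1.0 and -0.83 with SP, -0.51 and -0.28 with 3p, -0.46 and -0.66 with 5p and 0.33 and 0.40 with SATS. *Inhbb* was at -1.03 and -1.94 with SP, -0.52 and -2.31 with 3p, -0.24 and -0.03 with 5p and -0.24 and -1.05 with SATS. Of the genes higher with SP, *Zfp385a* was at 0.65 and 0.59 with SP, 0.47 and 0.45 with 3p, 0.54 and 0.37 with 5p and 0.28 and 0.01 with SATS. *Btg2* was at 0.53 and 0.96 with SP, 0.42 and 0.93 with 3p, -0.13 and -0.02 with 5p and 0.06 and 0.49 with SATS. Against the same scr library, luciferase siRNA in set 3 gave 0.51 for *Btg2*, and untreated cells in set 2 gave -0.12. For *Zfp385a* these controls gave 0.10 and -0.14. The part that the control siRNA plays in the difference of *Btg2* in set 3 was not tested.

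**Figure D4:**
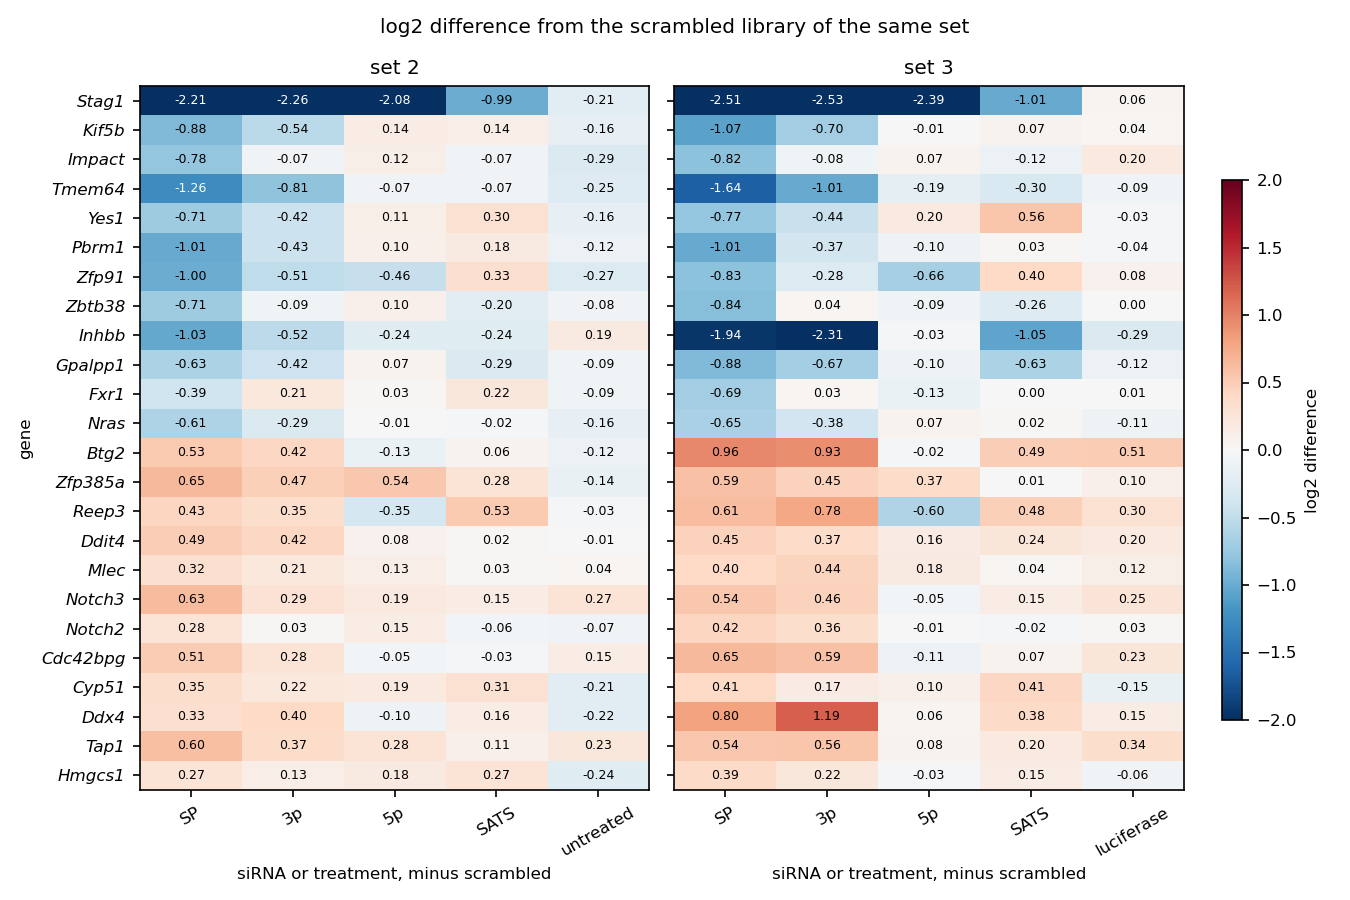
Log2 difference from the scr library of the same set for the 12 lower and 12 higher genes (rows) with each siRNA or control (columns), in set 2 (left) and set 3 (right); each cell is 1 library and prints its value, on a colour scale of -2 to 2. *Stag1* was low with SP, 3p and 5p, whereas *Impact*, *Zbtb38* and *Fxr1* were low with SP and between -0.26 and 0.22 with 3p, 5p and SATS.

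Gene lists were read by counts and medians, beside those of all 11057 genes, whose median log2 difference was 0.01 in the fit over 3 sets. Of all genes 5708 had a positive and 5349 a negative difference. In these lists no member other than *Stag1* was called by limma over 3 sets. Targets of p53, the transcription factor that answers DNA damage and other stress, lay higher in each set. Of 34 tested members 28 had a positive difference, 12 were higher at an unadjusted p under 0.05 and 1 was lower, against 3.93% and 3.47% of all genes. Their median was 0.20, with 0.31, 0.11 and 0.22 in sets 1, 2 and 3 and 0.15, 0.55 and 0.16 in libraries 1a, 1b and 1c. In untreated cells and with luciferase siRNA the median was -0.01 and 0.08. In sets 2 and 3 alone limma called 8 of the 34 higher, against 2.15% of all genes, and edgeR called 1 of them over 3 sets. Besides *Btg2* and *Ddit4* the genes called in sets 2 and 3 were, with the log2 difference over these sets, *Cdkn1a* (0.36), the inhibitor of cyclin-dependent kinases, *Apaf1* (0.31), the apoptosome scaffold, *Trp53inp1* (0.33), *Polk* (0.33), *Ei24* (0.37) and *Dcxr* (0.50), named after their values were seen. *Polk* was at 0.07 in set 2 and 0.59 in set 3, with -0.01 in untreated cells and 0.27 with luciferase siRNA. *Dcxr* was at 0.03, 0.52 and 0.48 in sets 1, 2 and 3, with 0.19 and 0.26 in these controls. For *Cdkn1a* the sets gave 0.21, 0.30 and 0.42 and the controls 0.09 and -0.02. *Btg2* and *Ddit4* held in all 3 sets in the higher direction, and *Tigar*, a regulator of glycolytic flux, in the lower direction (-0.28 ± 0.08, SE), but not without library 1c, when set 1 gave -0.19.

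Genes of the Notch and Hippo pathways, which carry contact between neighbouring cells to the nucleus, also lay higher. Of 28 tested members 8 were higher at an unadjusted p under 0.05 and 0 lower, against 3.93% and 3.47% of all genes, and the receptors *Notch2* and *Notch3* and the ligand *Dll1* held in all 3 sets. The medians in sets 1, 2 and 3 were 0.25, 0.06 and 0.12, but those of libraries 1a, 1b and 1c were -0.02, 0.13 and 0.39. Sets 2 and 3 alone gave 6 calls, all higher, where 2.15% of all genes were called higher: *Notch2* (0.35), *Notch3* (0.59), *Dll1* (0.52), the ligand *Jag1* (0.32) and, in the Hippo pathway, the kinase *Lats2* (0.32) and *Amotl1* (0.28). Of these, those other than *Notch2* and *Notch3* were named after their values were seen. *Notch3* was also above the same scr libraries in untreated cells of set 2 (0.27) and with luciferase siRNA in set 3 (0.25), where SP gave 0.63 and 0.54. *Jag1* was at 0.14 and 0.19 in these controls and at 0.18 and 0.46 with SP. *Amotl1* was at 0.07 and 0.25 in the controls and at 0.19 and 0.37 with SP. The controls of *Notch2*, *Dll1* and *Lats2* lay between -0.20 and 0.15, and *Lats2* had 10 reads in the scr library of set 1. *Hes1*, a canonical readout, had a log2 difference of -0.33 ± 0.18 (SE) over 3 sets, with -0.81, -0.12 and -0.05 in sets 1, 2 and 3. *Rbpj*, the DNA-binding partner of Notch, had -0.21 ± 0.09 (SE). In set 2 *Rbpj* was at -0.20 with SP and at -0.24 in untreated cells. Neither gene passed the test.

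Genes of cholesterol synthesis and uptake had a median of 0.12, with 0.04, 0.15 and 0.14 in sets 1, 2 and 3. Of 30 tested members 26 had a positive difference, 4 were higher at an unadjusted p under 0.05 (3.93% of all genes) and 1, the desaturase gene *Scd2* (-0.30 ± 0.11, SE), was lower. *Hmgcs1*, the synthase upstream of mevalonate, and *Cyp51*, the lanosterol demethylase, held in all 3 sets, as 1.4% of all genes did in the higher direction. *Insig1* (0.48 over sets 2 and 3), which retains the SREBP machinery in the endoplasmic reticulum, was named after its value was seen. *Hmgcs1*, *Cyp51* and *Insig1* were called higher in sets 2 and 3 alone, where 2.15% of all genes were. Set 1 without library 1c did not share this, with medians of -0.02 and -0.12 in 1a and 1b. In untreated cells and with luciferase siRNA the list was at -0.10 and -0.09 relative to scr. Sterol genes are classically controlled by SREBP factors through the sterol regulatory element, and the promoter of *Hmgcs1* is shown for this motif, TCACCCCAC, in capitals. The window covers 250 bases before to 50 bases after the annotated start (RefSeq, GRCm38.p6, chr13:119690101-119690400, plus strand).

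Hmgcs1: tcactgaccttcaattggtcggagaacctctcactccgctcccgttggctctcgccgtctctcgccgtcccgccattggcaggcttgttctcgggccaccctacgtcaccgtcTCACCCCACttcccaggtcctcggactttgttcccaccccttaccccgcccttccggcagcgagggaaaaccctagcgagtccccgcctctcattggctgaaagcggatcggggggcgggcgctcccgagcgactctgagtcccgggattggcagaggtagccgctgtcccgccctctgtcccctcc

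The match lay 137 bases before the start. On either strand, the motif was found in 0.551% of 32851 promoters of this length, and among 21 list members with a promoter in the table only *Hmgcs1* had it. A match is a description and not evidence of binding.

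Genes of the integrated stress response and amino acid supply lay lower. Of 34 tested members 30 had a negative difference, 10 were lower at an unadjusted p under 0.05 and 0 higher, against 3.47% and 3.93% of all genes. The median was -0.18, with -0.39, -0.02 and -0.18 in sets 1, 2 and 3, so that set 2 showed next to no difference. Luciferase siRNA in set 3 gave a median of -0.14 against the same scr library, and untreated cells in set 2 gave 0.06. *Chac1*, a glutathione-degrading target of Atf4, held in all 3 sets (-0.68, -0.27 and -0.83), although it was at 0.03 in library 1a. Of the 34 members it was the only one called in sets 2 and 3 alone, where 2.52% of all genes were called lower. *Chac1* was at -0.44 with luciferase siRNA. *Mars*, the methionyl-tRNA synthetase, was at -0.28 ± 0.08 (SE), while *Sesn2* and the amino acid transporter *Slc38a2* were at 0.19 ± 0.09 and 0.21 ± 0.10 (SE). Atf4 acts through the C/EBP-ATF response element, written TGATGNAAT, whose matches on either strand are shown in capitals in the promoters of *Gars*, the glycyl-tRNA synthetase, and *Pycr1*, an enzyme of proline synthesis. They lie at chr6:55037751-55038050, plus strand, and chr11:120643699-120643998, minus strand (RefSeq, GRCm38.p6).

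Gars: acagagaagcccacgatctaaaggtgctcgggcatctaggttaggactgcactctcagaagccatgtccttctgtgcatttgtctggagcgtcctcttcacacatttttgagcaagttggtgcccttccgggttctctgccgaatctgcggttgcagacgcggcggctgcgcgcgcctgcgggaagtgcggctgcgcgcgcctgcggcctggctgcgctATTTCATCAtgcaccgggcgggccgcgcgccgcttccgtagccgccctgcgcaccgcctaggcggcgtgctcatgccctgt
Pycr1: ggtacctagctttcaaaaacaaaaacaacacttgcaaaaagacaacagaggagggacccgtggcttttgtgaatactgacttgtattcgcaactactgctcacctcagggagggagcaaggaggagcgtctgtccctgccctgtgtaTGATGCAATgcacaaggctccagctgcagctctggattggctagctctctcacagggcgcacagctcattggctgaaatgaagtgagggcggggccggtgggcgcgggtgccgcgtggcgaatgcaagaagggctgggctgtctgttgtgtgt

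The motif was found in 0.965% of the 32851 promoters and in those of 4 of 28 list members with a promoter, *Aars*, *Gars*, *Iars* and *Pycr1*. *Gars* and *Pycr1*, picked for display after their values were seen, had log2 differences of -0.16 ± 0.08 and -0.44 ± 0.26 (SE). For *Pycr1* the sets gave -1.07, 0.14 and -0.40, which do not share 1 direction.

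**Figure D5:**
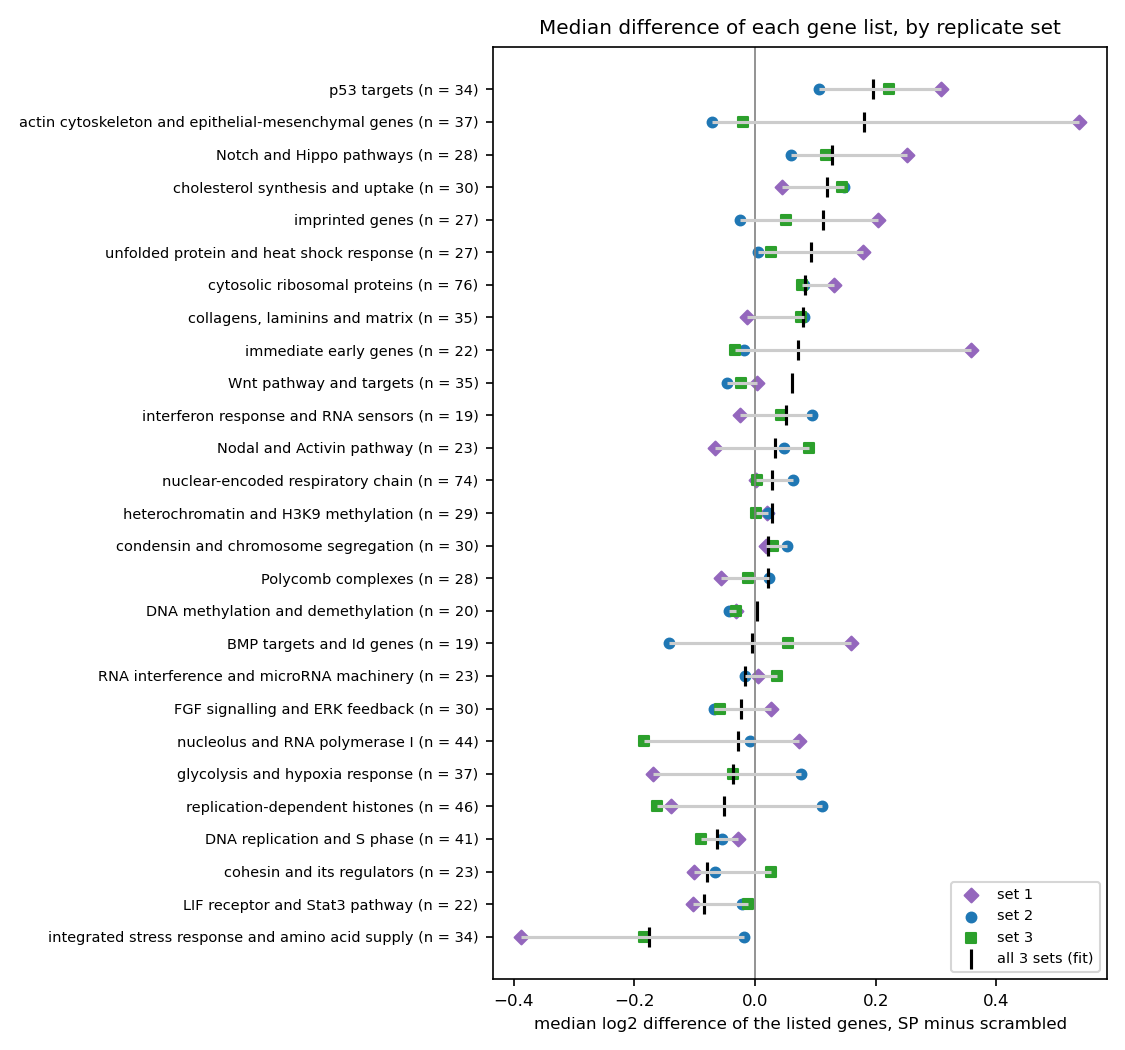
Median log2 difference between SP and scr (x axis) of the tested genes of each pathway list with at least 10 of them (y axis, number tested in brackets). Symbols are sets 1, 2 and 3 and black ticks the fit over 3 sets; p53 targets were above 0 in each set (0.31, 0.11 and 0.22), whereas the actin and epithelial-mesenchymal list was at 0.54 in set 1 and at -0.07 and -0.02 in the others.

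Signalling pathways of the stem cell state differed in single members. In the LIF and Stat3 list 5 of 22 tested members were lower and 1 higher at an unadjusted p under 0.05, against 3.47% and 3.93% of all genes, with medians of -0.10, -0.02 and -0.01 in sets 1, 2 and 3. *Lifr* and the naive transcription factor gene *Tfcp2l1* held in the lower direction and *Socs1*, a feedback inhibitor of the pathway, in the higher (0.60 ± 0.25, SE, with 5 reads in the scr library of set 1). Without library 1c *Socs1* was at 0.21 in set 1, so that it no longer held, and at 0.37 over 3 sets. In the FGF and ERK list *Fgf4* and *Nras* held, while the receptor gene *Fgfr2* was at 0.41 ± 0.14 (SE), and the medians of the list in the 3 sets were between -0.07 and 0.03. In the Nodal and Activin list *Inhbb* was lower and *Foxh1*, a partner of Smad2, was at 0.40 ± 0.14 (SE). Wnt genes had medians between -0.05 and 0.00 in the 3 sets. The Wnt acylating enzyme *Porcn* was at -0.33 ± 0.12 (SE). Over 3 sets the medians of these 4 lists lay between -0.09 and 0.06.

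Cohesin genes other than *Stag1* did not pass the test. Of 23 tested members of the list of cohesin and its regulators, *Stag2* alone was higher at an unadjusted p under 0.05 and *Stag1* alone lower. At this threshold 3.93% of all genes were higher and 3.47% lower. The loader *Nipbl* and the release factor *Wapal* were at 0.18 ± 0.09 and -0.13 ± 0.07 (SE). Among genes of chromosome segregation *Cenpf* and *Mki67* were at 0.25 ± 0.07 and 0.18 ± 0.06 (SE). Of 41 replication genes 33 had a negative difference, with medians of -0.03, -0.05 and -0.09 in sets 1, 2 and 3. The licensing factors *Mcm10* and *Cdt1* were at -0.24 ± 0.08 (SE) each, and in set 1 without library 1c at -0.08 and -0.07. Untreated cells and luciferase siRNA gave medians of -0.06 and -0.05 for the replication list. Cytosolic ribosomal protein genes lay slightly higher. Of 76 members 73 had a positive difference with a median of 0.08, and the sets gave 0.13, 0.08 and 0.08. None held at 0.25, and *Rps27a* and *Rps21* were at 0.18 ± 0.06 and 0.20 ± 0.08 (SE). Untreated cells gave a median of 0.05 and luciferase siRNA of -0.01. In sets 2 and 3 this list was at 0.21 and 0.005 with 3p, 0.06 and 0.14 with 5p and 0.15 and 0.41 with SATS. For the nucleolus and RNA polymerase I the medians were 0.07, -0.01 and -0.18, and *Taf1b*, of the polymerase I initiation complex, held at -0.31 ± 0.11 (SE).

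Chromatin regulators differed between lists. No gene of the heterochromatin list passed an unadjusted p of 0.05 in either direction among 29 tested, and the H3K9 methyltransferase gene *Setdb1* was at -0.17 ± 0.07 (SE). Polycomb genes had 2 higher and 3 lower of 28 at an unadjusted p under 0.05, and genes of DNA methylation 1 higher and 3 lower of 20, where 3.93% and 3.47% of all genes were higher and lower. *Mtf2* and *Rnf2* were at -0.32 ± 0.07 and -0.36 ± 0.11 (SE), while *Bmi1* was at 0.49 ± 0.16 (SE). Among genes of DNA methylation *Zfp57*, which protects imprints, was at -0.28 ± 0.07, *Tet2* at -0.52 ± 0.14 and *Tet3* at 0.44 ± 0.16 (SE). *Tet2*, also in the naive list, was at -0.92, -0.48 and -0.16 in sets 1, 2 and 3. *Tet3* was at 0.90, 0.31 and 0.12. Untreated cells in set 2 and luciferase siRNA in set 3 gave 0.03 and -0.13 for *Tet2* and 0.20 and 0.03 for *Tet3*. The imprinted genes *Gnas* and *Peg3* were at 0.20 ± 0.07 and 0.23 ± 0.09 (SE). Without library 1c *Gnas* was at -0.05 in set 1 and at 0.11 over 3 sets, and *Zfp57* at -0.07 and -0.21.

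Other responses differed between the sets. The actin and epithelial-mesenchymal list had a median of 1.1 in library 1c, -0.15 and -0.13 in 1a and 1b, and -0.07 and -0.02 in sets 2 and 3. The myosin light chain gene *Myl9* was above scr in every SP library (0.92, 1.02 and 1.63 in set 1, 0.45 and 0.51 in sets 2 and 3), and limma called it higher on sets 2 and 3 alone. *Lgals3*, which encodes galectin-3, was below scr in all 5 SP libraries (-0.70 ± 0.15, SE). Immediate early genes had a median of 0.36 in set 1 and -0.02 and -0.03 in the others, and *Klf10* and *Dusp1* were at -0.27 ± 0.08 and -0.22 ± 0.09 (SE). *Ndrg1*, a stress and hypoxia-responsive gene, was at -0.66 ± 0.12 (SE), with library 1b at 228 just above the scr library of set 3 at 223, and the glucose transporter gene *Slc2a3* was at -0.28 ± 0.09 (SE). The heat shock genes *Hspa1b* and *Dnajb1* were at 0.49 ± 0.17 and 0.24 ± 0.10 (SE), and the class I antigen gene *H2-K1* was at 0.44 ± 0.14 (SE). *Hspa1b* rested on 12 reads in the scr library of set 1. It was at 0.19 and 0.56 with SP in sets 2 and 3, and at -0.38 in untreated cells and 0.36 with luciferase siRNA. Of the respiratory chain *Ndufb5* was at -0.27 ± 0.09 (SE) in a list whose median was 0.03. Among matrix genes *Mmp14*, a membrane protease, held at 0.38 ± 0.09 (SE), with 0.36 in untreated cells and -0.14 in library 1b. *Itga6* and *Nid1* were at -0.22 ± 0.07 and -0.63 ± 0.23 (SE), and *Nid1* was at -1.40, -0.11 and -0.36 in sets 1, 2 and 3.

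Germ cell markers were above the scr library of their set in 4 of 5 SP libraries. Their summed signal was 3496 with scr and 6069, 4519 and 3366 in libraries 1a, 1b and 1c, 1774 and 1897 in set 2, and 1736 and 2334 in set 3. Of 11 tested members 3 were higher at an unadjusted p under 0.05 and 0 lower, against 3.93% and 3.47% of all genes. Their median was 0.13 in set 2 and 0.35 in set 3, while untreated cells in set 2 gave -0.02 and luciferase siRNA in set 3 gave 0.15. *Ddx4* and *Piwil2* held in all 3 sets, and *Tex11* was at 0.59 ± 0.22 (SE) but at -0.72 in library 1c.

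Some of the clearest differences of sets 2 and 3 did not recur in set 1. The following genes were chosen after their values were seen. *Cep76*, a centriolar protein gene, was at -0.97 and -0.89 in sets 2 and 3 and at 0.11 in set 1. *Ssr3*, a subunit of the translocon-associated complex, was at -0.60 and -0.66 and at 0.18 in set 1. The neuronal kinesin gene *Kif5c* was at -0.74 and -0.72 in sets 2 and 3 and at 0.93 in set 1, where libraries 1a, 1b and 1c gave 0.51, 0.59 and 1.49. *Ccng2*, a cyclin of arrested cells, was at 0.57 and 0.96 and at -0.83 in set 1, with -0.73, -0.88 and -0.87 in its libraries. *Satb1*, a chromatin organiser, was at 0.67 and 0.68 and at -0.14 in set 1. All 5 were called by limma on sets 2 and 3 alone. Of the 238 genes called higher in sets 2 and 3, 63.9% had a positive difference in set 1, where 52.6% of all genes did, and of the 279 called lower 60.6% had a negative one, against 47.4%. With libraries 1a and 1b alone these shares were 52.1% against 50.3% for higher genes and 64.9% against 49.7% for lower genes. Shallow libraries, library 1c and the set itself cannot be told apart as sources of the difference between set 1 and the other sets.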

How the data were processed

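Total RNA of serum-grown mESCs was depleted of rRNA, and directional libraries were sequenced by the authors on the HiSeq3000 platform as paired-end or single-end reads. A Nextflow pipeline aligned them with hisat2 to the mm10 genome and counted them per gene with featureCounts, and the deposited table of all sets holds a normalized signal, which is the read count divided by 1 DESeq2 size factor per library (version 1.14.1 per the labels' tool list). This normalized signal, made by the authors, covers 18659 genes in 16 libraries. Dividing by the value of 1 read gave whole reads (tolerance 0.01) for 100% of the values. A second deposited table, of set 1 alone, was not used, and the libraries of cells in 2i medium were not analysed here.

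Linear models of log2(signal + 1) were made in limma 3.58.1 (functions lmFit and eBayes, with the trend option, R 4.3.3) for 11057 genes with a mean signal of at least 50 in the 6 samples, with replicate set as a block. This filter was chosen because 1 read of set 1 is worth several units. Calls were made where the Benjamini-Hochberg adjusted p was under 0.05. Because of the added 1, differences of genes with low signal are understated. The samples with the same set number deviated together from their group means (r = 0.804, 0.823 and 0.772 in sets 1, 2 and 3), and the pairing comes from the set numbers of the labels. On recovered reads, edgeR 4.0.16 (quasi-likelihood test, TMM factors), limma voom and DESeq2 1.42.0 were run with the same block, with libraries 1a, 1b and 1c summed. Reads amplified by PCR can repeat 1 molecule, and depth therefore speaks to counting error only. limma and edgeR were tested on simulated data before use. The simulation gave SP the same effect in each set, so it does not show how the tests act where the effect differs between sets. How libraries 1a, 1b and 1c differ is not given in the sources used here.

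Genes named are *Stag1* and *Stag2*, the calls, the 12 higher and 12 lower genes that held in all 3 sets with the smallest p outside the naive, primed and 2C lists, up to 12 edgeR calls in each direction, and the 2 members of each gene list with the smallest p in each direction, of which some are given. Members, gene lists and tests were chosen with earlier results of these data known. Coordinates are from GENCODE M21 (GRCm38). Mitochondrially encoded genes are not in the table used, so that list, written as part of the RNA quality lists, gave no value. One gene called by edgeR is not reported here.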

Additional observations from a re-analysis of the deposited data

How the results depend on the processing

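The call of *Stag1* was lost without the replicate block, with a log2 difference of -2.15 and a limma adjusted p of 0.244, against 0.0381 with the pairing by set. It was also lost in edgeR without the block (log2 -2.13, edgeR adjusted p of 0.356) and with the wider filter of a summed signal of at least 10 (log2 -2.15, limma adjusted p of 0.0534). With library 1b (log2 -2.13) or 1c (log2 -2.11) alone in set 1 the limma adjusted p was 0.0596 and 0.728. Its log2 difference without 1 set lay between -2.36 and -1.98. Genes called higher and lower were 0 and 1 by limma with the block, 2 and 21 by edgeR, 8 and 40 by DESeq2, 5 and 30 by limma voom and 3 and 24 with all 14 samples of the 3 sets. The fits of limma and edgeR without the block, the wider filter, and library 1b or 1c alone each called 0 and 0. Library 1a alone gave 0 and 5, and libraries 1a and 1b together, an alternative added after seeing the data, 0 and 7. Leaving out 1 set gave 0 to 238 genes higher and 1 to 279 lower, with the high values without set 1 (234 and 277 by edgeR, also added). Genes that held in all 3 sets, 155 higher and 148 lower, became 10 and 28 at a size of 0.5, 1831 and 1727 at any size, 65 and 77 at a mean signal of at least 200 (fewer genes are tested) and 74 and 91 where 1a, 1b and 1c each had to hold. Where only 2 sets had to hold, they were 314 to 516 and 328 to 430. Pseudocounts of 0.1 and 10, TMM factors and the mean of 1a and 1b left the counts of genes that held within 1.5 times. Of 99 genes followed, 2 reversed. *Ccng2* (0.23 over 3 sets) lay between -0.13 and 0.77 without 1 set, and *Kif5c* (-0.18) between -0.73 and 0.10 without 1 set and at 0.0082 with library 1c alone. Of 333 list medians under alternatives, 39 moved by more than the SD between sets. Beyond the choices whose construction shows it (fewer genes, fewer samples), the cause was not tested.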
